A study of Mus musculus with 6 samples.

Results

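Desert hedgehog signalling in the juvenile testis was followed through 9 genes: the ligand Dhh, the ligand acyltransferase Hhat, the receptor Ptch1, the inhibitor Hhip, the transducer Smo, the Gli inhibitor Sufu and the transcription factors Gli1, Gli2 and Gli3. They were found by their gene symbol in the platform annotation, which gave 9 of the 18193 genes named there by a single symbol and 23 of the 45101 probe sets on the array. The samples were whole testes of mice at postnatal day 21, with 3 Nxf2 knockout (KO) and 3 wild-type (WT) samples on 1 array each. The strain, the allele design and the number of animals behind each sample are not stated in the labels. The series text calls them 3 pairs of WT and KO testes without saying what a pair shares. P-values therefore measure only the spread between these 6 samples. The knockout is of Nxf2, an X-linked germ cell relative of the mRNA export receptor gene Nxf1. The submitters found similar testis weights in the genotypes at this age.

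Hedgehog ligands bind Patched receptors, which otherwise hold the membrane protein Smoothened inactive; once released, Smoothened frees Gli factors from Sufu so that they can switch on target genes. Ptch1, Hhip and Gli1 are themselves targets, so their transcripts serve as readouts of the pathway. In the testis Dhh is made by Sertoli cells, the somatic nurse cells of the seminiferous tubules, and acts on Leydig and peritubular cells outside the tubule wall, where it is needed for their normal development.

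The start regions of 3 members are shown because they stand for the ligand, a target and the factor gene that passed the test below. Each run holds the 250 bases before the annotated start in RefSeq, build GRCm38.p6, written 5′ to 3′ in the direction of the gene. Capitals mark GGGTGG, the core of the Gli binding consensus TGGGTGGTC, or its reverse complement CCACCC. These lie at chr15:98898541-98898790 on the minus strand for Dhh, chr8:80058009-80058258 on the minus strand for Hhip and chr13:15463473-15463722 on the plus strand for Gli3.
Dhh: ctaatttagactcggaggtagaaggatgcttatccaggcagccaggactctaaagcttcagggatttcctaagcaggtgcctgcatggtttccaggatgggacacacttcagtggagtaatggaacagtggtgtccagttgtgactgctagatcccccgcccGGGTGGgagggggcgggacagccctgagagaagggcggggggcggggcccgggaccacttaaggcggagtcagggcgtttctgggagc
Hhip: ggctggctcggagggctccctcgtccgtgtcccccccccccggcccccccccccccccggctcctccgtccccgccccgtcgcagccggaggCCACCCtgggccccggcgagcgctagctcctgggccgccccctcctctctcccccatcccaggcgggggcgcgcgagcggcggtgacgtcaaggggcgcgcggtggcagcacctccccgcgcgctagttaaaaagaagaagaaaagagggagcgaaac
Gli3: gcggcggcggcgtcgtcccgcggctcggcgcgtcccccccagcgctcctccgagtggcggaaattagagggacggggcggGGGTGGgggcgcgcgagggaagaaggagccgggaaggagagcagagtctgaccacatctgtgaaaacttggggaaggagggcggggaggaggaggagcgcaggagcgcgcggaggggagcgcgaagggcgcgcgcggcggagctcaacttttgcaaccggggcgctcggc
The core lay 88 to 83 bases before the start of Dhh, 170 to 165 before that of Gli3 and, on the opposite strand, 158 to 153 before that of Hhip. Of the 8 members with a promoter in the RefSeq table, 5 held the core on either strand and 0 held the full 9-base consensus. All 3 members shown are among those 5, and the windows of Hhat, Ptch1 and Sufu lacked the core. Among all 32851 promoter windows of this length, 28.1% held the core and 0.225% the consensus, so the core is a common word. A match describes letters only.

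The targeted gene was measured first. Nxf2 had signals of 116.0, 106.2 and 130.8 in KO and 374.3, 340.4 and 385.9 in WT (log2 fold change -1.59, adjusted p = 0.000488), and whether its probes lie in the deleted part is not known here. Signals are the deposited linear values, and log2 fold changes are KO minus WT on the log2(signal + 7) scale, which understates changes of dim probe sets. Of 27022 tested probe sets 2024 were called at an adjusted p under 0.05 (limma), 610 higher and 1414 lower in KO. After each array was centred on its median the split was 353 higher and 1509 lower. The number of calls ranged from 159, without WT replicate 1, to 1534 when 1 array was left out.

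Of the Hedgehog genes, 1 probe set of 12 tested passed: Gli3 rose 1.27-fold in KO. The other 11 did not pass, and of these 10 had higher KO means and 1, for Sufu, a lower one. The share called among all tested probe sets was 7.49%, with 2.26% higher and 5.23% lower, so 1 call of 12 lies near that background. An unadjusted p under 0.05 was reached by 4 of the 12 and by 28.5% of all tested probe sets. Higher KO means were found in 56.9% of all tested probe sets, and the 11 of 12 among the members stayed 11 under quantile normalization and median centring. The other 11 member probe sets had a mean signal under the dim limit of 20.5 and were not tested; both probe sets of Hhat, 3 of 4 for Hhip, 2 of 3 for Ptch1 and Sufu, and 1 of 3 for Smo and Gli3 were among them. With that limit lifted, 19 of 23 had higher KO means and limma called 0 of them (4 at an unadjusted p under 0.05), while 2.23% of all probe sets were called.

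**Figure D1:**
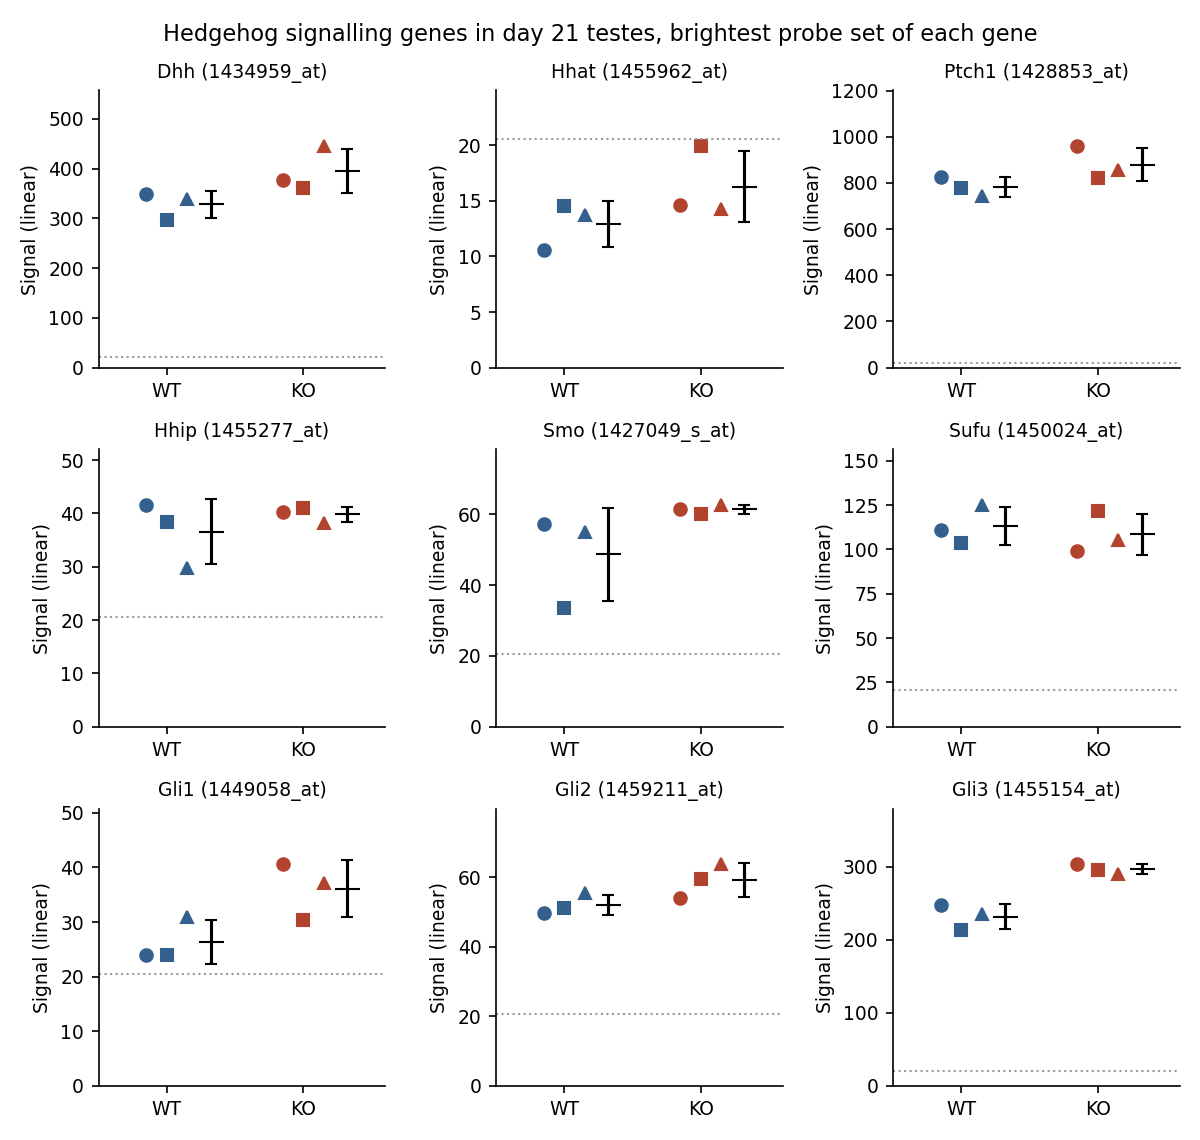
Deposited signal (linear axis from 0) of the brightest probe set of each of the 9 genes in the 3 WT (blue) and 3 KO (red) samples. Circles, squares and triangles are replicates 1, 2 and 3; the black bar is the mean ± SD, n = 3. The dotted line is the dim limit of 20.5. The 3 KO points lie above the 3 WT points for Dhh, Smo and Gli3, and Hhat lies under the dim limit.

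The ligand gene Dhh had signals of 377.9, 361.1 and 445.5 in KO and 349.4, 297.4 and 338.0 in WT at its bright probe set (1434959_at). The KO samples lay above all WT samples, and KO replicate 3 stood highest. The groups averaged 394.9 ± 44.7 and 328.2 ± 27.3 (SD, n = 3 each). The difference was 0.26 ± 0.0960 (SE) in log2 fold change and did not pass (adjusted p = 0.117). Without KO replicate 3 it was 0.17 (adjusted p = 0.305). The second Dhh probe set, 1422127_at, was close to the dim limit, at 32.4, 23.0 and 28.3 in KO and 19.8, 21.4 and 26.0 in WT. Its groups overlapped, and its log2 fold change was 0.24 ± 0.160 (SE, adjusted p = 0.340), or 0.15 without KO replicate 1. Over the 6 arrays the probe sets of Dhh had a Pearson correlation of 0.59. Neither probe set passed.

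Hhat attaches palmitate to the ligand, a step needed for its full activity. Its brighter probe set read 14.6, 19.9 and 14.3 in KO and 10.6, 14.5 and 13.7 in WT, all under the dim limit. The other ranged from 0.436 to 6.01. No level of Hhat could therefore be compared between genotypes.

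Ptch1, receptor and target in a single gene, had signals of 960.2, 821.1 and 855.9 in KO and 825.7, 778.9 and 742.6 in WT (1428853_at). KO replicate 1 stood highest, and KO replicate 2 fell just below WT replicate 1, so the groups overlapped. Means were 879.1 ± 72.4 and 782.4 ± 41.6 (SD, n = 3 each). This amounted to 0.16 ± 0.0675 (SE) on the log2 scale and did not pass (adjusted p = 0.145). Without KO replicate 1 the log2 fold change was 0.10 (adjusted p = 0.330). Its other probe sets read at most 20.1 and 6.45 in any sample.

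Hhip binds Hedgehog ligands at the cell surface and so limits their reach. It read 40.2, 41.0 and 38.2 in KO and 41.6, 38.4 and 29.7 in WT at its only tested probe set (1455277_at). The genotypes overlapped, with the highest and the lowest reading both in WT. The log2 fold change was 0.11 ± 0.146 (SE, adjusted p = 0.638), with a 95% interval from -0.21 to 0.44, and it was -0.0044 without WT replicate 3. Of the 3 untested Hhip probe sets the brightest read 15.5 to 26.2 across the 6 samples.

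Smo, the transducer, was read by a pair of tested probe sets annotated to the same clone, so they are not independent. The brighter (1427049_s_at) read 61.54, 60.04 and 62.66 in KO and 57.4, 33.6 and 55.1 in WT. The KO samples lay above the WT samples, and WT replicate 2 was far below the other two. Its log2 fold change was 0.33 ± 0.178 (SE, adjusted p = 0.253), and the lowest value when 1 array was left out was 0.11. The dimmer (1427048_at) read 24.1, 21.6 and 26.7 in KO and 19.9, 14.6 and 18.9 in WT, again with no overlap, and its log2 fold change was 0.33 ± 0.153 (SE, adjusted p = 0.183). Over the 6 arrays the pair had a Pearson correlation of 0.89.

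Sufu, which holds Gli factors in the cytoplasm, was the member with a lower KO mean. It read 99.1, 121.6 and 105.1 in KO and 110.7, 103.8 and 125.1 in WT (1450024_at). The genotypes overlapped throughout, and the log2 fold change was -0.057 ± 0.12 (SE, adjusted p = 0.784). The 95% interval ran from -0.32 to 0.21, so changes within it are not excluded by the fit. The sign turned without KO replicate 1 and without WT replicate 3.

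Gli1, the activator whose transcript is a common readout of Hedgehog activity, was dim. It read 40.7, 30.4 and 37.2 in KO and 24.0, 24.0 and 31.0 in WT (1449058_at). KO replicate 2 lay just under WT replicate 3, and the rest were separated. Means were 36.1 ± 5.20 and 26.3 ± 4.05 (SD, n = 3 each), and the log2 fold change of 0.37 ± 0.156 (SE) was larger than that of any other tested member but did not pass (adjusted p = 0.153).

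Gli2, the main activator early in the response, was read by 2 tested probe sets annotated to the same clone. The brighter (1459211_at) read 54.0, 59.3 and 63.8 in KO and 49.8, 51.1 and 55.3 in WT, and its log2 fold change was 0.16 ± 0.124 (SE, adjusted p = 0.423). The other (1446086_s_at) read 50.6, 40.3 and 51.5 in KO and 36.9, 30.7 and 42.7 in WT, with 0.32 ± 0.154 (SE, adjusted p = 0.206). In each a single KO sample lay below WT replicate 3: KO replicate 1 in the first and KO replicate 2 in the second.

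Gli3, whose processed form represses targets when no ligand is bound, read 303.5, 295.1 and 290.0 in KO and 246.8, 212.5 and 234.6 in WT (1455154_at). Every KO sample lay above every WT sample, and the KO samples were within a narrow band. Means were 296.2 ± 6.83 and 231.3 ± 17.4 (SD, n = 3 each). The difference was 0.35 ± 0.0827 (SE) in log2 fold change (adjusted p = 0.0338). The call was lost when any single array was left out, with log2 fold changes of 0.29 to 0.40 and adjusted p of 0.0579 to 0.0949, and after median centring (adjusted p = 0.0523). The second tested probe set of the gene, 1456067_at, did not show the separation: 114.7, 129.7 and 146.4 in KO against 115.3, 131.7 and 96.1 in WT, or 0.18 ± 0.137 (SE) in log2 fold change (adjusted p = 0.405). That value was 0.070 when WT replicate 3 was left out and 0.099 when KO replicate 3 was, and it was 0.28 without WT replicate 2. Over the 6 arrays these probe sets of Gli3 had a Pearson correlation of 0.29. With the tested probe sets of each gene averaged, the log2 fold change of Gli3 stood at 0.27 (adjusted p = 0.0550).

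**Figure D2:**
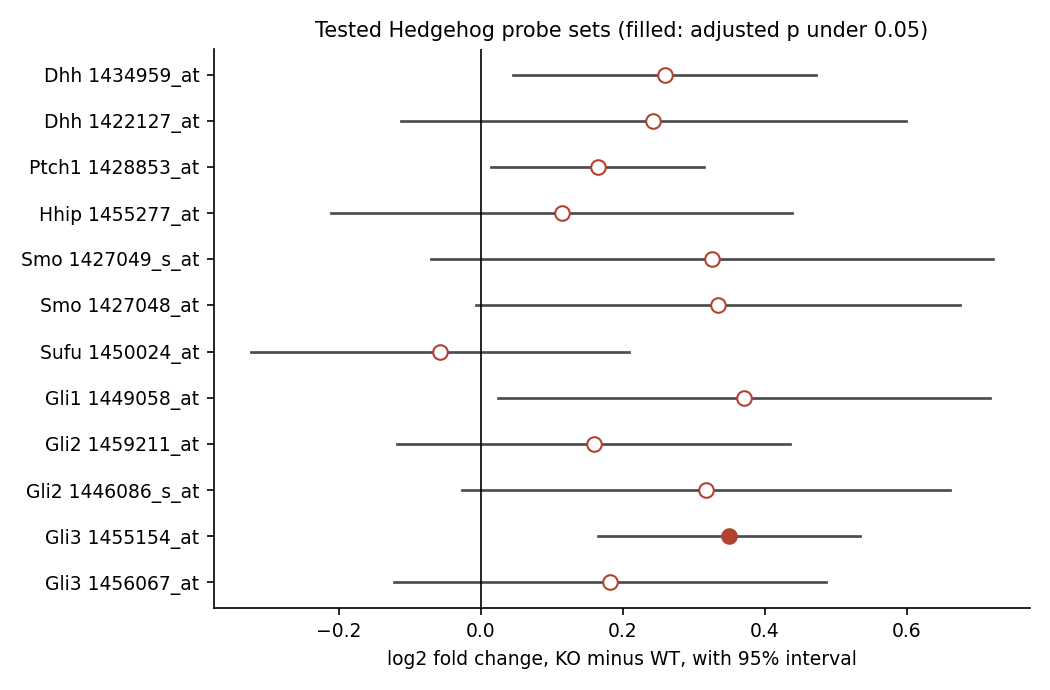
Log2 fold change, KO minus WT, of the 12 tested Hedgehog probe sets, ordered from ligand to transcription factors. Points are limma estimates and lines their 95% intervals, not adjusted for the number of tests; the filled point passed at an adjusted p under 0.05. Only the bright Gli3 probe set is filled, and only Sufu lies below 0.

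Across the 12 tested member probe sets, the arrays differed within genotypes. KO replicate 3 gave the highest reading in 6 and KO replicate 1 in 4, while WT replicate 2 gave the lowest in 5 and WT replicates 1 and 3 in 3 each. Relative to the WT mean, the median of the 12 was 0.31, 0.16 and 0.33 (log2) in KO replicates 1 to 3 and 0.050, -0.11 and 0.074 in WT replicates 1 to 3. In 4 of the 12 the KO samples lay above the WT samples (Dhh, Smo at both probe sets, and Gli3), against 19.1% of all tested probe sets; in 33.9% the genotypes did not overlap in either direction.

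The Sertoli ligand was then set against its targets within each array, as the log2 signal of Dhh minus that of a target, expressed relative to the WT mean. Dhh minus Ptch1 was -0.092, 0.068 and 0.31 in KO and 0.013, -0.13 and 0.12 in WT. Dhh minus Gli1 was -0.32, -0.037 and 0.022 in KO and 0.19, -0.038 and -0.15 in WT. Dhh minus Hhip was 0.076, -0.013 and 0.37 in KO and -0.076, -0.21 and 0.28 in WT. The genotypes overlapped in all 3 comparisons. The KO minus WT differences were 0.094, -0.11 and 0.14, with p = 0.6, 0.6 and 0.5 by two-sided exact permutation tests (adjusted p = 0.6 for each). With 3 samples a group these tests cannot go below 0.1, and they do not show that ligand and targets moved alike.

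In whole testes, more cells of a type and more RNA per cell cannot be told apart. Most somatic cell markers had higher KO means, as 11 of the 12 tested member probe sets did, and a minority of the markers were called. Over all tested genes by brightest probe set, 56.9% had higher KO means. Of these genes 2.98% were called as higher and 7.37% as lower in all. Of 25 Sertoli genes listed, 21 had a probe set with a single symbol and 20 were tested. All 20 had higher KO means and 4 were called as higher, with a median log2 fold change of 0.21. Summed signals, here and for the lists below, cover all listed genes with a probe set, tested or not. For the Sertoli list they were 16090 to 16947 in KO and 14729 to 15350 in WT. The Sertoli median by array, relative to the WT mean, was 0.18, 0.14 and 0.26 in KO, beside 0.20, 0.14 and 0.44 for Dhh. Of 20 Leydig genes listed, only 13 had such a probe set, and all 13 were tested. These 13 had higher KO means and 2 were called as higher, with a median of 0.32. Their summed signals were 5363 to 7239 in KO and 4499 to 4955 in WT. Of the Leydig genes listed, 3 (Nr2f2, Nr5a1 and Cyp11a1) also stand among the target genes below. In the peritubular myoid list 13 of 15 had higher KO means and 0 were called by limma (2 at an unadjusted p under 0.05), with a median of 0.11 and overlapping sums of 6529 to 7525 and 6132 to 6575. Over all tested probe sets the median was 0.037. The part of these cell types in the Hedgehog values was not tested.

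Higher KO means were found in 11 of 14 tested endothelial and 13 of 15 tested macrophage markers. The medians of these lists, though not every marker, were highest in KO replicate 3, the array that also gave the highest Dhh reading. So were the Sertoli, Leydig, peritubular myoid and undifferentiated spermatogonial medians (0.26, 0.51, 0.29 and 0.38 there), so this was not particular to 1 cell type. The endothelial and macrophage medians relative to the WT mean were 0.45 and 0.92 in KO replicate 3. They were 0.031 and 0.11 in KO replicate 1 and 0.19 and 0.28 in KO replicate 2. Summed signals were 653.4 to 848.0 in KO and 589.7 to 612.6 in WT for the endothelial list, with 2 of 14 called as higher. For the macrophage list they were 2406 to 3736 and 1687 to 2348, with 1 of 15 called as higher. Of the Gli3 probe sets, the bright one was lowest in KO replicate 3 among the KO arrays and the other was highest there. Germ cell lists moved in both directions: 5 of 12 undifferentiated spermatogonial markers were called as higher, while 12 of 14 round spermatid and 4 of 14 spermatocyte markers were called as lower. Summed signals in KO and WT were 4263 to 4352 and 3571 to 3583 for spermatogonia, 12653 to 14038 and 14415 to 15211 for spermatocytes, and 5723 to 6023 and 7474 to 7514 for round spermatids. No listed marker with a probe set was at 0 on any array, but neither was any other deposited value. This therefore does not show that a marker's transcript was present.

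**Figure D3:**
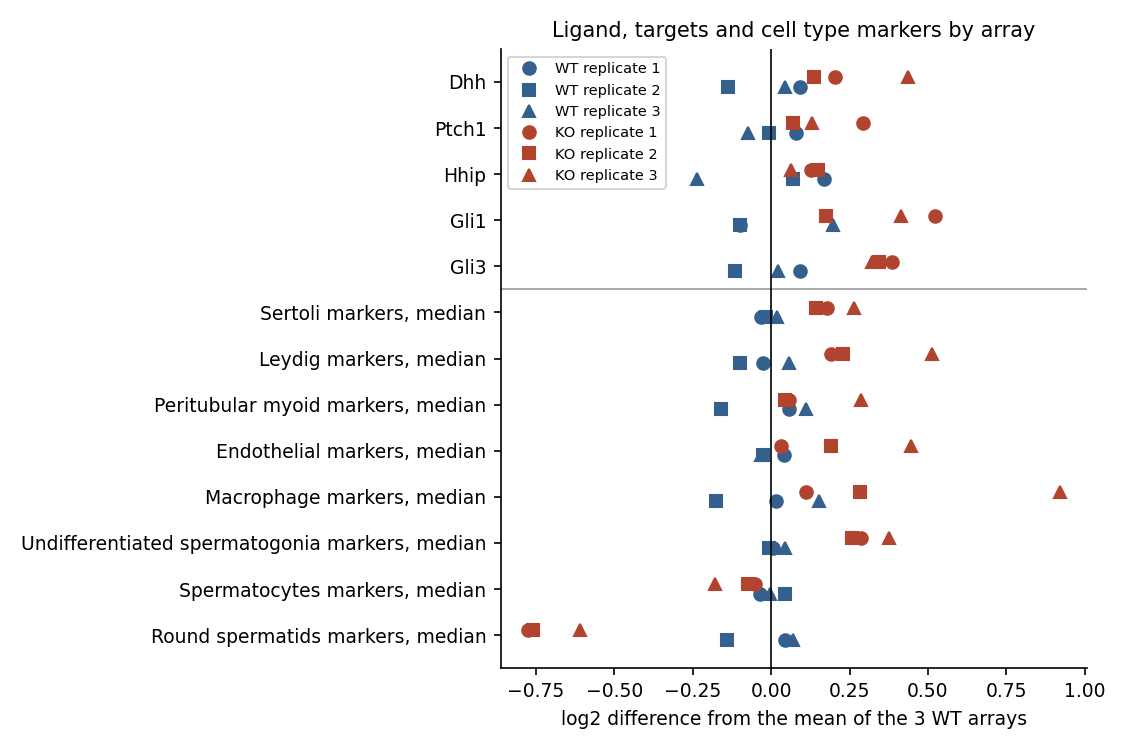
Log2 difference from the mean of the 3 WT arrays, for the bright probe sets of Dhh, Ptch1, Hhip, Gli1 and Gli3 (above the line) and the median of each cell type marker list (below). Red is KO, blue is WT; circles, squares and triangles are replicates 1, 2 and 3. Dhh and the Sertoli, Leydig, peritubular myoid, endothelial, macrophage and undifferentiated spermatogonial medians are highest in KO replicate 3. Gli3 is similar in all KO arrays, and round spermatid markers are lower in KO (-0.78 to -0.61).

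The wider pathway was read from 73 other genes, of which 69 had a probe set with a single symbol and 59 were tested by their brightest. Among these 3 rose, 1 fell and 55 did not pass, where 10.3% of all tested genes were called (2.98% higher and 7.37% lower). The median log2 fold change of the 59 was 0.090, against 0.036 over all tested genes. The other ligand genes, Shh and Ihh, were under the dim limit: Shh read 10.9 to 15.3 in KO and 11.1 to 24.9 in WT, and Ihh 8.06 to 13.9 and 7.14 to 8.12. Dhh was thus the only ligand gene above the limit.

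Among the target genes 1 of 12 rose. Foxf1, a forkhead factor gene induced by Hedgehog signals in mesenchyme, read 185.5, 182.8 and 206.9 in KO and 119.9, 122.9 and 111.2 in WT. All KO samples lay well above all WT samples, and Foxf1 rose 1.59-fold, or 0.67 ± 0.0980 (SE) in log2 fold change (adjusted p = 0.00678). The rise passed in all 6 fits that left out 1 array except without WT replicate 1 (adjusted p = 0.0506). Its second probe set read 4.555 to 9.004 in KO and 0.871 to 5.39 in WT and was not tested. Cyp11a1, the side-chain cleavage enzyme of Leydig steroid synthesis, stood at 0.58 ± 0.161 (SE) in log2 fold change without passing (adjusted p = 0.0553), with 468.9, 336.0 and 578.7 in KO and 270.3, 314.2 and 312.8 in WT. The median of the 12 target genes was 0.16. An unadjusted p under 0.05 by limma was reached by 5 of them. The share over all tested probe sets was 28.5%, which is a different unit from genes by brightest probe set. With the tested probe sets of each gene averaged, Foxf1 passed and 2 more targets did: Ccnd2, a cyclin gene, as higher (log2 fold change 0.51, adjusted p = 0.0280, against 0.32 and 0.101 at its brightest probe set) and Foxm1, a forkhead factor gene of the cell cycle, as lower (-0.33, adjusted p = 0.0412, against -0.27 and 0.130). Cyp11a1 was at 0.35 by that measure (adjusted p = 0.0801). The share of all genes called by gene means was not recorded, so this count of targets has no background to be read against.

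Of 13 genes of the cilium and of Smoothened control, 1 rose and 1 fell. Arrb2, encoding beta-arrestin 2, an adaptor that binds activated membrane receptors, read 169.2, 170.6 and 203.6 in KO and 123.8, 98.1 and 129.3 in WT. Arrb2 rose 1.52-fold, or 0.60 ± 0.127 (SE) in log2 fold change (adjusted p = 0.0228). Its second probe set also rose by 0.52 on the log2 scale (adjusted p = 0.0260). Stk36, the mammalian Fused kinase gene, known also for its role in motile cilia, read 173.4, 185.8 and 154.6 in KO and 212.8, 231.6 and 252.0 in WT. Every KO sample lay below every WT sample, and the log2 fold change was -0.42 ± 0.102 (SE, adjusted p = 0.0357). The second Stk36 probe set was under the dim limit and not tested. It read 6.13, 5.53 and 12.5 in KO and 16.5, 15.0 and 17.8 in WT. The median of the 13 was 0.038 and 7 had higher KO means, so this group had no common direction. An unadjusted p under 0.05 by limma was reached by 7 of the 13, in both directions. The 28.5% of all tested probe sets is again not a share of genes by brightest probe set. Leaving out 1 array ended the call of Stk36 each time (adjusted p = 0.0502 to 0.0936) and that of Arrb2 without KO replicate 3, WT replicate 1 or WT replicate 2 (adjusted p up to 0.0828).

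Among genes of ligand processing and release 1 of 7 rose. Gpc4, a glypican that carries heparan sulfate at the cell surface, read 764.5, 732.2 and 835.6 in KO and 656.0, 590.2 and 630.3 in WT. The samples did not overlap, and the log2 fold change was 0.31 ± 0.0658 (SE, adjusted p = 0.0238). Its second probe set did not pass: it read 652.0, 605.4 and 725.6 in KO and 550.9, 483.6 and 619.1 in WT, which overlapped, and its log2 fold change was 0.26 (adjusted p = 0.110). The call at the brighter probe set was lost without KO replicate 3 or any of the WT replicates (adjusted p up to 0.0756). Hhatl, a relative of Hhat, stood at -0.26 ± 0.122 (SE) in log2 fold change (adjusted p = 0.188).

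None of the 5 tested receptor and co-receptor genes passed by limma (0 called, and 0 at an unadjusted p under 0.05). Gpc3, a glypican that competes with Patched for ligand, stood at 0.38 ± 0.189 (SE) in log2 fold change (adjusted p = 0.218), and Gas1, a co-receptor gene, at 0.22 ± 0.160 (adjusted p = 0.390). None of the 22 tested genes of Gli phosphorylation and degradation passed either (0 called, 3 at an unadjusted p under 0.05, median 0.018). The lowest adjusted p among them was that of Dyrk2, a kinase that phosphorylates Gli2, at 0.0818 (log2 fold change 0.19), followed by Prkar2a, a regulatory subunit of protein kinase A, at 0.0899 (0.23).

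**Figure D4:**
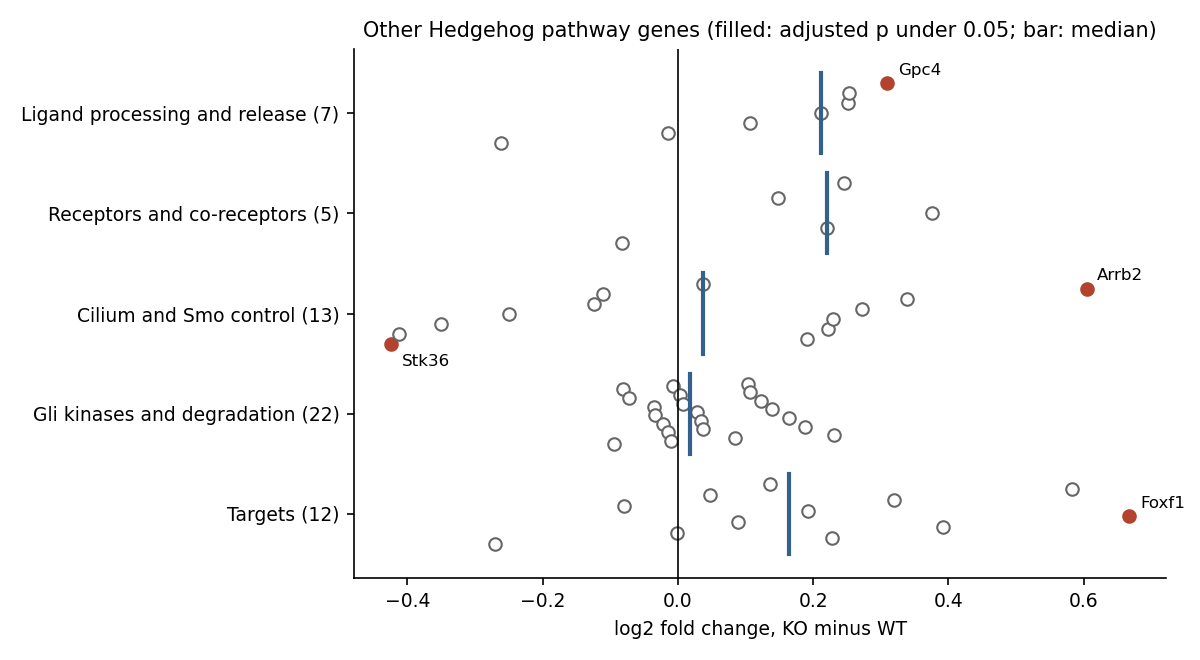
Log2 fold change, KO minus WT, of the 59 other tested Hedgehog pathway genes by role, with the number of genes in brackets. Each point is 1 gene by its brightest probe set, filled where the adjusted p was under 0.05; the vertical bar is the median of the role. Foxf1, Arrb2 and Gpc4 are filled on the right and Stk36 on the left, and the 22 kinase and degradation genes lie close around 0.

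The genes whose values followed each member most closely over the 6 arrays were taken from 21965 named probe sets for Dhh and 21966 for Gli1 and Ptch1. For Dhh they were Aunip, Mdp1 and Rnd2, with Pearson r of 0.998, 0.997 and 0.997 (Spearman rho 1 for each). For Gli1 they were Slc4a3, Gars and Ccm2 (r = 0.995, 0.992 and 0.990; rho = 0.943, 0.943 and 0.886). For Ptch1 they were Bcl6b, Det1 and Ppm1l (r = 0.994, 0.979 and 0.977; rho = 0.943, 1 and 0.943). With 6 arrays that share the genotype split, r of at least 0.9 was reached by 8.3% of the candidates for Dhh, 2.89% for Gli1 and 0.76% for Ptch1, so such values are common for Dhh. Among the members themselves, r was 0.74 between Dhh and Gli1, 0.56 between Dhh and Ptch1, 0.66 between Ptch1 and Gli1, and -0.69 between Ptch1 and Sufu. For Hhip it was 0.18 with Dhh, 0.62 with Ptch1 and -0.071 with Gli1. These are descriptions of 6 arrays.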

How the data were processed

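RNA of 6 whole-testis samples was hybridised to 1-colour Affymetrix arrays. The deposited intensity of each probe set is a linear signal, made with MAS5 per the submitters' processing notes (version not given there). The mean without the lowest and highest 2% of values was 150.0 on every array. Of 45101 probe sets, 64 controls were left out. Of the rest, 34945 had 1 gene symbol, 932 several and 9160 none; symbols were updated by Entrez identifier through RefSeq (GRCm38.p6), which held 99.4%. Members were matched by single symbol.

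Values were tested as log2(signal + 7), 7 being the 25th percentile of all values, for the 27022 probe sets whose mean reached the 40th percentile (20.5), with limma 3.58.1 in R 4.3.3 (lmFit, eBayes with trend, two-sided, no covariate). P-values were Benjamini-Hochberg adjusted over all tested probe sets. The number of arrays limits the precision, and no detection calls were used. No 2 arrays held identical values. The members and lists were chosen with earlier results of these data known. Named were all members, each other pathway gene called, and the 2 of lowest p per role. The second probe sets of Foxf1, Arrb2, Stk36 and Gpc4 were chosen after their values were seen. So were the gene means of Ccnd2 and Foxm1 and the correlations between members. On simulated arrays of the 27022 probe sets for KO against WT, 71, 64 and 65 probe sets were changed by 0.25, 0.5 and 1 (log2). Of these, 1.41%, 28.1% and 75.4% were recovered, with 3 false calls among 71 calls. The real fit called 2024 probe sets, and the adjustment is less strict where more are called. The simulated shares therefore do not give the power of the real comparison.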

Additional observations from a re-analysis of the deposited data

How the results depend on the processing

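Among the 12 member probe sets, 10 kept their direction under every alternative run; Sufu and Hhip did not. The Sufu log2 fold change turned to 0.00031 with array weights, and was -0.14 to 0.013 when 1 array was left out. That of Hhip turned to -0.0073 with array weights, and was -0.0044 to 0.20 when 1 array was left out. The Gli3 call was lost under 9 of 15 alternatives, with log2 fold changes of 0.31 after median centring and 0.35 without the dim filter or without the trend, and of 0.29 to 0.40 when 1 array was left out. Gli1 passed with array weights (adjusted p = 0.0296). The same weights lowered the log2 fold change of the bright Dhh probe set to 0.12, of Ptch1 to 0.089 and of the Smo probe sets to 0.11 and 0.18. A pseudocount at the median signal lowered the log2 fold changes of Gli1 (to 0.20), Hhip and the dim Dhh probe set by over 1.5 times. It did the same for both Gli2 and both Smo probe sets. The number of member probe sets called was 0 after median centring, without the dim filter and without the trend, 2 with array weights and 0 to 0 when 1 array was left out. For the other pathway genes it was 1 without the dim filter, 1 without the trend, 13 with array weights, 6 by gene means and 0 to 4 when 1 array was left out, and for all probe sets 1005 without the dim filter, 743 without the trend, 7217 with array weights and 159 to 1534 when 1 array was left out. The share of all genes called by gene means was not recorded, so the 6 have no background. Without the dim filter more probe sets enter the adjustment and the trend is fitted anew. The cause of the shifts was not tested.

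With the replicate number as a block, 2 member probe sets (Gli3 and Dhh), 8 other pathway genes and 4503 probe sets in all were called, with Dhh at 0.26 in log2 fold change (adjusted p = 0.0405). The labels do not say that the numbers mark the pairs. Deviations of same-numbered KO and WT arrays correlated at 0.079, 0.46 and 0.27. Every KO array and WT replicates 2 and 3 correlated best with their own number, and WT replicate 1 with KO replicate 3 (0.11). As 1 same-number correlation was under 0.1, the numbers were not taken to pair the samples. The dim members, Hhat foremost, are limited by signal close to background.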
